A study of Mus musculus with 6 samples.

Results

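Rif1 was described here through every region whose row in the deposited gene tables names the gene, in the Oct4, Spt16 and Jmjd1c lists. There were 4 such regions among 1542 in the 3 lists: 2 of the 1253 Spt16 regions, 1 of the 265 Oct4 regions and 1 of the 24 Jmjd1c regions. The gene was chosen by its read enrichment over input, which put it in all 3 lists, so the presence of those regions and their enrichment over input are given as a description, with no test. The series applied chromatin immunoprecipitation and sequencing (ChIP-seq) to mouse embryonic stem cells of C57BL/6 background that carry a tetracycline-inducible (tet-ON) Oct4 gene. All cells were first differentiated with retinoic acid and then given PBS or doxycycline, the drug that turns the Oct4 gene on. The libraries used here came from cells 10 h after doxycycline: ChIP with antibodies to Oct4, to Spt16 and to Jmjd1c, set against input chromatin of the same time, with 1 library each. The other libraries, Oct4 ChIP and input at 0 h, were not analysed here. The labels do not say whether the cells were 1 clone, and region tables hold no expression by which the cell type could be checked. Library totals were 15.5 M reads for Oct4, 36.7 M for Spt16, 26.7 M for Jmjd1c and 14.6 M for the input. Without replicates, each interval covers counting error only, and no difference between libraries was tested against variation between cultures.

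The RIF1 protein links several kinds of genome maintenance. At DNA double-strand breaks it is recruited by 53BP1 and brings in shieldin and MAD2L2 to limit resection of the ends. At replication origins it carries the phosphatase PP1, which opposes the CDC7-DBF4 kinase, and so shapes the timing of replication. Its yeast namesake, Rap1-interacting factor 1, restrains telomere length. In mouse embryonic stem cells Rif1 is highly expressed. Oct4, the product of Pou5f1, is a POU transcription factor of the pluripotency network. Spt16 is the large subunit of the histone chaperone FACT, which loosens and reassembles nucleosomes. Jmjd1c is a Jumonji-family protein related to the histone H3 lysine 9 demethylases Kdm3a and Kdm3b.

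Where did the 3 proteins lie at Rif1? The lists placed them on one stretch upstream of the gene. Rif1 (ENSMUSG00000036202) is annotated in the deposited tables on the plus strand of chromosome 2 at 51928356 to 51977902 (mm9). The Oct4 region ran from 51927691 to 51927920, the Spt16 region from 51927524 to 51928069 and the Jmjd1c region from 51927625 to 51927899. Relative to the deposited gene start, the Oct4 region covered 665 to 436 bp upstream, the Spt16 region 832 to 287 bp upstream, and the Jmjd1c region 731 to 457 bp upstream. None of the 3 reached the start itself. All 230 bases of the Oct4 region and all 275 bases of the Jmjd1c region lay inside the Spt16 region, and 209 bp, from 51927691 to 51927899, were common to the 3 lists.

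**Figure D1:**
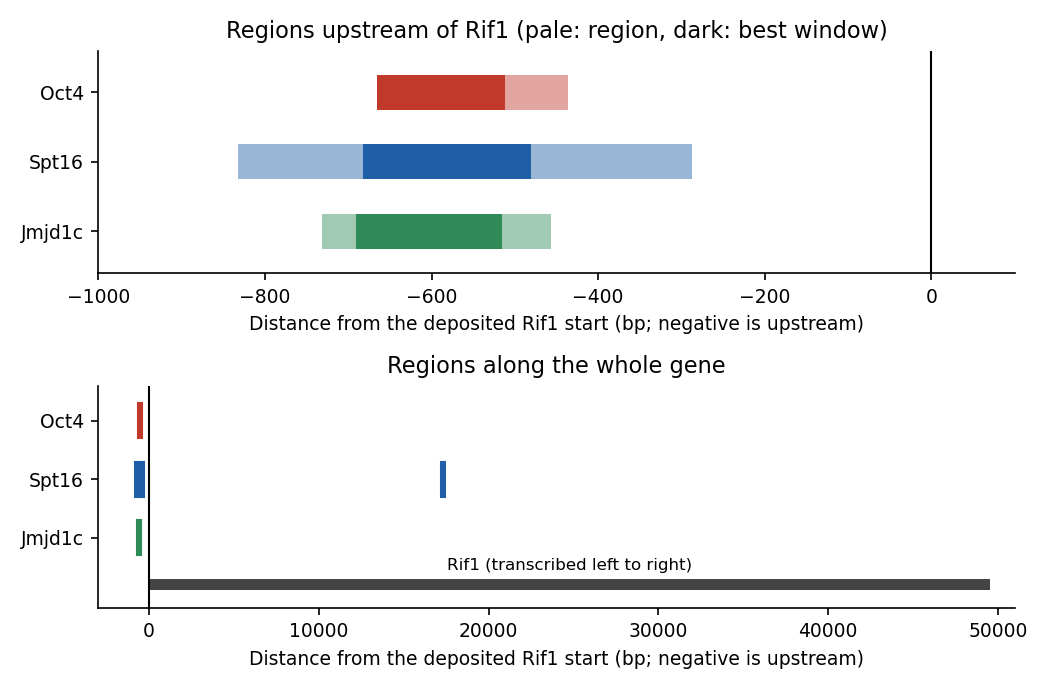
The horizontal axes give the distance in bp from the deposited Rif1 start. The upper panel shows the upstream regions in pale color with the best window (the most enriched scanning window) in dark color, and the lower panel shows every Rif1 region along the gene. The 3 upstream regions stack between 832 and 287 bp before the start, and a lone Spt16 region lies 17306 bp into the gene.

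The middles of the regions fell 551 bp (Oct4), 560 bp (Spt16) and 594 bp (Jmjd1c) from the start. The best windows, the scanning windows in which the deposited reads were counted, sat closer together: their middles were 7 bp apart for Oct4 and Spt16, 15 bp for Oct4 and Jmjd1c, and 22 bp for Spt16 and Jmjd1c. Chromatin had been sheared to 250 to 750 bp, so gaps of this size are far below the fragment length. At 545 bp the Spt16 region was the widest of the 3, against 229 bp for Oct4 and 274 bp for Jmjd1c. It merged 39 scanning windows, where the Oct4 and Jmjd1c regions merged 2 and 3. Spt16 also had the deepest library and the most reads here, and the part of depth in the width was not tested. At each of the other 10 loci in all 3 lists, Spt16 was likewise the widest region and enclosed the Oct4 and Jmjd1c regions. The Rif1 widths therefore followed the pattern of those loci, whose Spt16 regions ran from 447 to 592 bp.

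How many reads lay there? The best window of the Rif1 upstream region had 170 reads from the Spt16 library, 28 from the Oct4 library and 25 from the Jmjd1c library, against 0 input reads in each window. Scaled to reads per 1000000 library reads (RPM), these came to 1.8 RPM for Oct4 (95% Poisson interval 1.2 to 2.6), 4.64 RPM for Spt16 (3.97 to 5.39) and 0.935 RPM for Jmjd1c (0.605 to 1.38). The interval of the Spt16 library did not overlap that of either other library, whereas the Oct4 and Jmjd1c intervals overlapped. RPM also depends on how well each antibody enriches, which was not measured. The values thus do not rank the amounts of the 3 proteins. The best windows differed in length as well, at 153 bp for Oct4, 201 bp for Spt16 and 175 bp for Jmjd1c. Against a floor of 3 input reads (0.206 RPM), enrichment was at least 8.76-fold for Oct4, at least 22.6-fold for Spt16 and at least 4.55-fold for Jmjd1c. The 3 best windows overlap and were read in 1 input library, so the 3 zeros are close to a single observation and not independent ones.

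**Figure D2:**
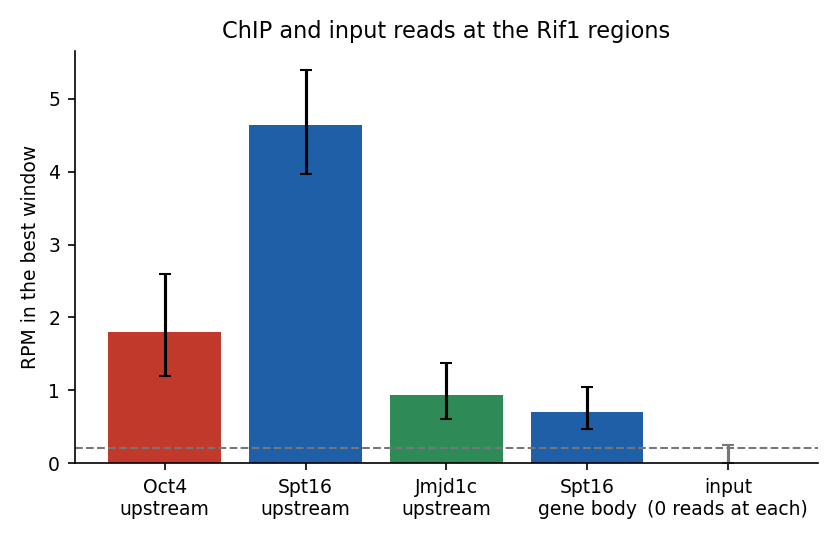
Bars give RPM in the best window of each Rif1 region, with 95% Poisson intervals, and the input bar marks 0 reads at each region with its upper limit. The dashed line is the floor of 3 input reads, 0.206 RPM. Spt16 upstream stands highest at 4.64 RPM and Spt16 in the gene body lowest of the ChIP values at 0.709 RPM.

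Reads came from both strands at the upstream region. The plus strand gave 15 of 28 Oct4 reads (53.6%, 95% Clopper-Pearson interval 33.9 to 72.5), 89 of 170 Spt16 reads (52.4%, 44.6 to 60.1) and 13 of 25 Jmjd1c reads (52.0%, 31.3 to 72.2). Over all regions the plus-strand share was 50.8%, 50.4% and 51.8% in the Oct4, Spt16 and Jmjd1c lists. Each interval at Rif1 includes the share of its list.

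The place of Rif1 in its list differed among the proteins. By the authors' score, -10 log10 of a binomial p-value for ChIP against input, the upstream region stood at position 3 of 1253 in the Spt16 list, sharing its score of 247.3 with Pou5f1, at position 17 of 265 in the Oct4 list (score 80.5), and at position 13 of 24 in the Jmjd1c list (score 47.3). The Jmjd1c position moved to 8 by the authors' log2 ratio and to 23 by reads per kb of region. In the Spt16 list the next region, near a U1 small nuclear RNA gene on chromosome 14, held 144 reads. In the Oct4 list Rif1 fell between a region near Vamp1 (40 reads against 3 input reads) and one near Ndufa4l2 (35 against 2). Those neighbors held more Oct4 reads than Rif1, and Rif1 was at position 29 by Oct4 reads alone. In the Jmjd1c list the region just above, near Samd12, held the same 25 reads, and the one just below, near Zfp960, held 43 against 4 input reads. The Jmjd1c region of Rif1 had a Q value score of 16.7 and the Oct4 region 41.3, where the lists were cut at 13. By reads the Jmjd1c region was close to the edge of its list. Its 25 reads compare with 23, the fewest in any listed Jmjd1c region without input reads, and it was at position 17 of 24.

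The second Spt16 region named for Rif1 lay inside the gene. It ran from 51945562 to 51945763 on chromosome 2, with its middle 17306 bp past the start, 34.9% of the way along the 49547 bp gene. Whether that position is exonic or intronic was not worked out here, since no mm9 exon annotation was used. It held 26 Spt16 reads (10 plus, 16 minus) against 0 input reads, or 0.709 RPM (0.463 to 1.04), at least 3.45-fold over the floor. The upstream region held 6.54 times as many Spt16 reads (95% counting interval 4.31 to 10.3). With a Q value score of 13.02, the lowest in the Spt16 list, the gene-body region was just inside the threshold of 13. By score it was at position 1166 of 1253, tied with the rest of the regions at the bottom of the list. Its 26 reads are the fewest of any listed Spt16 region without input reads, a count shared by 88 regions.

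No Oct4 or Jmjd1c region overlapped the gene-body site. The depth of those libraries limits that statement. At the same 0.709 RPM the Oct4 library would hold 11 reads and the Jmjd1c library 19, whereas the fewest in any listed region without input reads were 15 and 23. On average, a signal equal to that of Spt16 would thus have fallen below those counts, so the lists cannot tell whether one was there. Of 103 Ensembl identifiers of protein-coding genes with a Spt16 region within 1000 bp of the start, 5 had a further Spt16 region inside the gene (4.85%). Besides Rif1 these were Dpys, Lrch4, Hist1h2be and Hist2h3c1, named after their values were seen. Inside the gene means within the deposited gene bounds, which were not checked against other gene models. For Hist1h2be the further region lay 35779 bp from the start, so the count depends on those bounds.

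Other listed regions were distant from Rif1, and whether more so than is usual on chromosome 2 was not worked out. Rif1 had the sole Jmjd1c region of chromosome 2, 1 of 15 Oct4 regions and 2 of 95 Spt16 regions. The nearest other Oct4 regions lay 11.2 Mb before and 16.7 Mb after the Rif1 start, and the nearest other Spt16 regions 1.02 Mb before and 5.18 Mb after. The deposited rows also named Tnfaip6, which encodes a secreted hyaluronan-binding protein, with its start 34277 bp from the Oct4 region, 34268 bp from the Spt16 region and 34234 bp from the Jmjd1c region. For the gene-body region they named Neb, the muscle protein nebulin, with its start 248655 bp away. Rif1 was the nearest named gene in all 4 rows.

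How did the balance of the 3 proteins at Rif1 compare with other shared loci? Spt16 was high relative to Oct4. At Rif1, Spt16 RPM over Oct4 RPM came to 2.57 (170 against 28 reads, 95% counting interval 1.72 to 3.99), and its median over the other 167 regions in both lists was 1.14, with a range of 0.518 to 2.8. Of those regions, 1 had a higher ratio, inside Cnpy1 (132 Spt16 reads against 20 Oct4 reads), which was named after its value was seen. The windows behind the 2 counts were unequal, 201 bp for Spt16 and 153 bp for Oct4. Per bp of best window, a setting added after seeing the data, the ratio was 1.96, and Rif1 fell at position 7 of 168 rather than 2. By RPM alone Rif1 was at position 3 of 168 for Spt16 and 29 for Oct4. A region had to be called in both lists to enter this set, which limits low ratios where Oct4 reads are few. It limits high ratios as well. No listed Oct4 region without input reads held fewer than 15 reads (0.965 RPM), so a ratio as high as that of Rif1 needs high Spt16. Spt16 regions without an Oct4 region were left out, so the position of Rif1 describes the called regions only. The same limit applies to the sets of shared loci below.

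**Figure D3:**
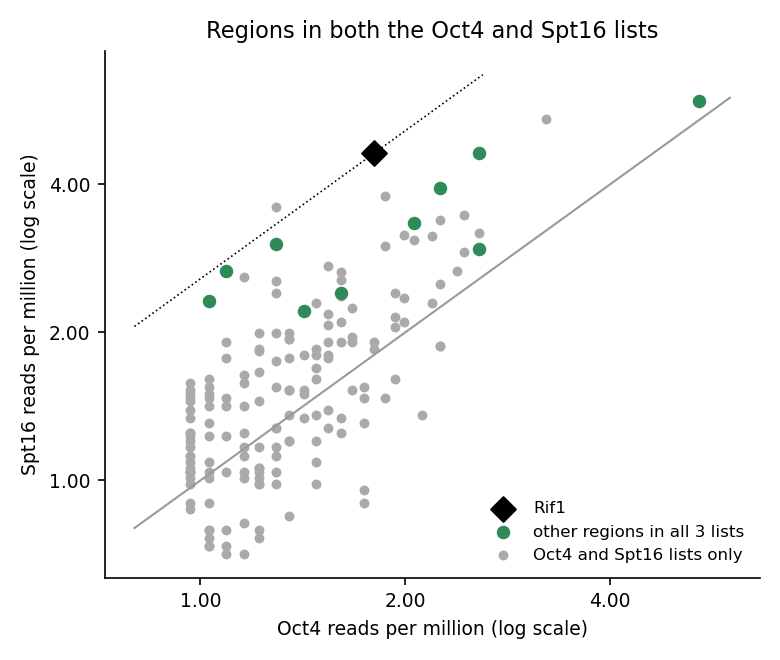
Each point is a region in both the Oct4 and Spt16 lists, with Oct4 RPM across and Spt16 RPM up, on log scales. The solid line marks equal values and the dotted line the Rif1 ratio of 2.57. Rif1, the diamond at 1.8 and 4.64 RPM, has 1 other region on the upper side of its line.

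The Jmjd1c library had the lowest RPM of the 3 at Rif1, which does not rank the proteins themselves. The Jmjd1c to Oct4 ratio was 0.519 (0.29 to 0.923), against a median of 0.704 and a range of 0.318 to 0.959 over the other 12 regions in both lists. The Spt16 to Jmjd1c ratio was 4.96 (3.25 to 7.88), against a median of 2.45 and a range of 0.93 to 5.16 over the other 13. That median lies below the counting interval of Rif1, while the median for Jmjd1c and Oct4 lies within its interval. Scaled to the reads in shared regions instead of library totals, the Spt16 to Jmjd1c ratio was 1.97 in place of 4.96. The Jmjd1c to Oct4 ratio was 0.886 in place of 0.519. The counting intervals do not cover the choice of scaling. Such scaling multiplies every region of a pair of lists alike and leaves the place of Rif1 among them as it was.

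Among the loci in all 3 lists, Pou5f1, the gene of Oct4 itself, had the smallest distance to Rif1. Likeness was measured as the distance in log2 RPM over the 3 ChIP libraries, among the 11 regions in all 3 lists. No interval was placed on these distances, so the order of close values is not settled. Pou5f1 was at a distance of 0.518, followed by the regions inside Slc35f4 (0.579), near the chromosome 14 U1 gene (0.819), inside Iqgap1 (0.88), a scaffold protein of the cytoskeleton, and near Slain2 (0.964), a microtubule-associated protein. The Rif1 and Pou5f1 best windows held the same 170 Spt16 reads and nearly the same Jmjd1c reads, 25 at Rif1 and 24 at Pou5f1. They differed in Oct4, with 28 reads at Rif1 and 40 at Pou5f1. The Spt16 to Oct4 ratio was thus 2.57 at Rif1 and 1.8 at Pou5f1, a quotient of 1.43 whose 95% exact conditional interval, 0.817 to 2.52, includes 1. For Jmjd1c over Oct4 the quotient of Rif1 over Pou5f1 was 1.48 (0.665 to 3.33), and for Spt16 over Jmjd1c it was 0.96 (0.503 to 1.83), so counting error alone could cover each difference. The widths differed as well: the Oct4 region spanned 229 bp at Rif1 and 400 bp at Pou5f1, where its middle lay 1986 bp before the start.

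Among the 11 loci in all 3 lists, Rif1 was tied with Pou5f1 behind Abca4 for Spt16 reads, which ranged from 81 to 217 at the other 10. It stood at position 6 for Oct4 and position 8 for Jmjd1c. Its Spt16 to Oct4 ratio was the highest of the 11, where the other 10 ranged from 1.1 to 2.44, but per bp of best window it was at position 4. All 11 stayed in the set when regions had to overlap by at least 50% of the narrower one. With Oct4 and Spt16 alone, over 168 regions, the most similar loci were the one near Gm5963 and inside Sema5b (distance 0.295; 29 Oct4 and 139 Spt16 reads), the chromosome 14 U1 locus (0.401), Pou5f1 (0.515), Slc35f4 (0.516) and the chromosome 15 U7 locus (0.558). The first and last of these were not in the Jmjd1c list.

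**Figure D4:**
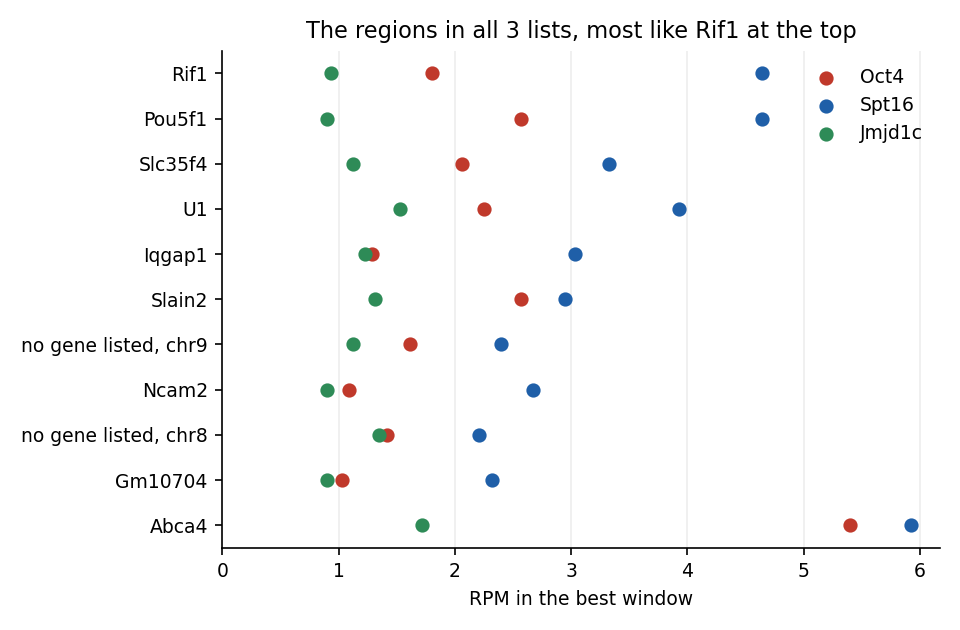
Points give RPM in the best window for Oct4, Spt16 and Jmjd1c at the 11 regions in all 3 lists, ordered from Rif1 downward by distance to Rif1 over the 3 libraries. Spt16 exceeds Oct4 and Jmjd1c in each row. Rif1 and Pou5f1 share 4.64 RPM of Spt16.

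How often did regions lie as close to a gene start? Of the 24 Jmjd1c regions, that of Rif1 was the sole one with its middle within 1000 bp of a listed gene start. Such regions numbered 16 of 265 for Oct4, where Rif1 was at position 3 by score, and 160 of 1253 for Spt16, where it was at position 1. Counted over 21900 protein-coding genes, a region lay within 1000 bp of the start for 14 genes with Oct4 (0.0639% of genes), 102 with Spt16 (0.466%) and 1, Rif1, with Jmjd1c (0.00457%). These shares describe the lists from which Rif1 was chosen and give no support to the choice.

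In 10 loci an Oct4 region that overlapped a Spt16 region had its middle within 1000 bp of a protein-coding start. Rif1 held more Spt16 than any other of them, 4.64 RPM against 0.982 to 3.19 RPM at the other 9, and was at position 3 for Oct4, 1.8 RPM against 0.965 to 2.57 RPM. Its Spt16 to Oct4 ratio of 2.57 lay above the other 9, which ran from 0.803 to 1.49, and it kept position 1 per bp of best window (1.96, against at most 1.46). These loci too had to be called in both lists, which limits high ratios where Spt16 is low. The 5 with the highest Oct4 scores were Dido1 with its divergent neighbor 2310003C23Rik (30 Oct4 and 75 Spt16 reads, 0 input reads), Vamp1, a synaptic vesicle protein (40 and 117 reads, 3 and 5 input reads), Rif1 itself, Srrm4, a neural splicing regulator (19 and 67 reads, 0 input reads), and Rnf169, a ubiquitin-binding protein that limits 53BP1 at DNA breaks (21 and 71 reads, 1 input read each). The others were Nanog, Gadd45g, Fbxo15, Foxh1 and Trp53bp1. None of the other 9 was in the Jmjd1c list, where 11 of the 168 regions shared by Oct4 and Spt16 were found, Rif1 included. None had a further Spt16 region inside the gene, against 4.85% of the 103 identifiers with a start-proximal Spt16 region. Shares this low would leave few or no loci in most sets of 9, and Rif1 was chosen for being in all 3 lists.

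**Figure D5:**
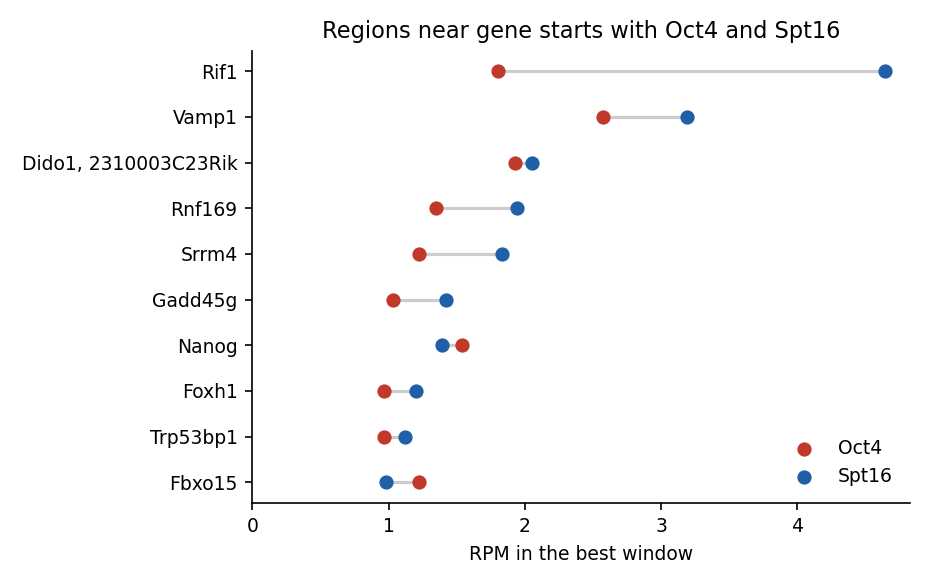
Points give Oct4 and Spt16 RPM at the 10 loci where both lists have a region and the Oct4 middle lies within 1000 bp of a protein-coding gene start, sorted by Spt16. The gap between the points is widest at Rif1, 4.64 RPM of Spt16 against 1.8 RPM of Oct4, and at Nanog and Fbxo15 Oct4 is the higher of the pair.

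Reference sequence was shown for Nanog, because it is the pluripotency gene of this group. Its Oct4 middle lay 96 bp before the deposited start in mm9. The windows of the promoter table (RefSeq, GRCm38.p6) run from 250 bases before to 50 after an annotated start. The region and the window are in different builds, so their coordinates cannot be set side by side. Of the 14 genes with an Oct4 region within 1000 bp, 10 had windows in the promoter table, 16 in all. Rif1 was not among them. The Nanog window, chr6:122707239-122707538 on the plus strand, is printed in lower case with matches to CATTGT (the SOX core) and ATGCAAA (the octamer without its last base, added after this window was seen), on either strand, in capitals.
Nanog: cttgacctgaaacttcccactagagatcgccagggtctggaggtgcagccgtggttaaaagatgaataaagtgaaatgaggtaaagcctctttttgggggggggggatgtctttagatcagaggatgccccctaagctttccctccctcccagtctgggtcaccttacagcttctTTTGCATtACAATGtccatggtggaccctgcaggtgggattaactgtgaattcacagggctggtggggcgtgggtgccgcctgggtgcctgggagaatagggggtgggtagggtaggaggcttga
The matches start 75 and 67 bases before the RefSeq start of this window and are separated by a single base. Another Nanog window, with a later start, holds the same matches 151 and 143 bases before that start. CATTGT was present in 12.6% of all 32851 windows and ATGCAAA in 4.63%, while the full octamer ATGCAAAT was in 1.74% of all windows and, among the 16, in the Gadd45g window alone (6.25%). A match describes the letters only.

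Did the genes that work with Rif1 carry regions too? Of 60 genes in 4 lists (break repair partners, telomere proteins, replication origin and timing factors, heterochromatin partners), 1 had an Oct4 region within 50000 bp of its start (1.67%, against 1.42% of all 21900 protein-coding genes), 12 had a Spt16 region (20.0%, against 7.15%) and 0 had a Jmjd1c region (against 0.132%). The Oct4 share was near that of all genes. Within 5000 bp, 1 gene remained for Oct4 (1.67%, against 0.192%) and 1 for Spt16 (1.67%, against 1.3%), with 0 for Jmjd1c (against 0.0137%), so the Spt16 excess rested on distant regions. With a single gene behind it, the Oct4 share within 5000 bp carries no weight.

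That single gene was Trp53bp1, which encodes 53BP1, the protein that brings RIF1 to DNA breaks. Its Oct4 region was on chromosome 2 at 121096330 to 121096686, inside the gene with its middle 634 bp from the start, and it held 15 reads against 0 input reads, at least 4.69-fold over the floor. The Spt16 region there held 41 reads against 0, at least 5.44-fold. The Oct4 region had the lowest number of reads in the list, a count shared by 70 regions, and was tied at position 196 of 265. In RPM, Rif1 had 1.8 of Oct4 and 4.64 of Spt16, and Trp53bp1 had 0.965 and 1.12. The remaining Spt16 regions of the break repair list, of 15 genes with 3 called (20.0%, against 7.15% of all genes), were 28096 bp from Paxip1 (46 reads against 0), which binds 53BP1 at breaks, and 49615 bp from Shld2 (32 against 0), a shieldin subunit.

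Of 12 telomere proteins, 3 had a Spt16 region (25.0%, against 7.15% of all genes). Terf1, a shelterin subunit that binds telomere repeats, had its region 13844 bp away (46 reads against 1 input read, 18.3-fold, 3.13 to 738.6), and Ctc1 and Ten1, subunits of the CST complex, had regions 21787 and 12944 bp away (28 and 30 reads against 0). Of 17 replication origin and timing factors, 1 had a Spt16 region (5.88%, below the 7.15% of all genes): Ppp1cc, a PP1 catalytic subunit, 33416 bp away (50 reads against 0). Of 16 heterochromatin partners, 5 had one (31.2%, against 7.15%), each over 5000 bp from the start. These were Ehmt1, an H3 lysine 9 methyltransferase (7192 bp, 40 reads against 0), Trim28, the corepressor of KRAB zinc finger proteins (9786 bp, 32 against 0), Suv39h1, another H3 lysine 9 methyltransferase (23503 bp, 46 against 0), and the DNA methyltransferases Dnmt1 (35218 bp, 33 against 1) and Dnmt3b (26699 bp, 26 against 0). In these 3 lists no gene had a Spt16 region within 5000 bp (against 1.3% of all genes). None had an Oct4 region within 50000 bp (against 1.42%). Shares this low would leave few or no genes in most sets of this size.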

How the data were processed

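Per the file headers, the authors set each ChIP library of the 10 h time point against the input of that time to call regions, with cutoffs of 13 on the Q value score and 1 on the log2 ratio. Reads were handled with CASAVA 1.4 and Bowtie on mm9, per the submitters' processing notes. No source used here names the program that called the regions. The Oct4 list lacks 10 regions that the authors also saw in uninduced cells and took out, per its header. The deposited read counts are whole reads per strand in the best window of a region, summed here over strands and scaled to the library totals in the headers (RPM). The deposited log2 value is the authors' ratio of scaled ChIP reads to input reads, with 1 added to each. The deposited score puts the binomial p-value on a -10 log10 scale.

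Folds against 0 input reads used a floor of 3 reads and are lower bounds. Poisson, Clopper-Pearson and conditional intervals are at 95%, and cover counting error only, since such reads may be copies of one molecule. Lists were joined by an overlap of at least 1 bp. Symbols and synonyms were matched to a RefSeq table on GRCm38.p6, for names only. No test between conditions was possible with 1 library a group. The genes, lists and motifs were chosen with earlier results of these data known. Named loci were the 5 most like Rif1, the 5 highest-scoring start-proximal ones, rank neighbors and up to 8 members per gene list; others are marked. Interval and overlap code was tested on simulated data. Scripts used scipy 1.17.1, pandas 2.3.3 and numpy 2.4.6 under Python 3.11.15, with matplotlib 3.10.9 for plots.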

Additional observations from a re-analysis of the deposited data

How the results depend on the processing

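With 1 read added to both libraries, as in the authors' log2 value, Rif1 enrichment was 27.3-fold for Oct4, 68.7-fold for Spt16 upstream, 11.3-fold for Spt16 in the gene body and 14.6-fold for Jmjd1c, all above the lower bounds by construction. Scaling to reads in shared regions gave a Spt16 to Jmjd1c ratio of 1.97 in place of 4.96. The Jmjd1c to Oct4 ratio was then 0.886 in place of 0.519, and the Spt16 to Oct4 ratio 2.14 in place of 2.57. The counting intervals do not cover such changes of scale. Over regions in all 3 lists the median Spt16 to Oct4 ratio was 1.68. Ranked by the authors' log2 ratio, the Spt16 upstream region was at position 2, the Oct4 region at 11 and the gene-body Spt16 region at 815. By reads per kb the gene-body region was at 741, and by ChIP reads the Oct4 region was at 29. Widening the distance to 5000 bp raised the start-proximal loci with Oct4 and Spt16 to 28. Narrowing the gene distance from 50000 to 5000 bp lowered the Spt16 count of Rif1-related genes to 1. In the higher-scoring part of each list, 6 such genes had a Spt16 region and 0 an Oct4 region. No share of all genes was set beside these counts, so they show neither an excess nor a lack. No paired analysis was possible because each group has 1 library, and none could be left out.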

Other observations

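Other gene lists showed how the 3 proteins spread beyond Rif1. Of 18 core pluripotency genes, 4 had an Oct4 region within 50000 bp (22.2%, against 1.42% of all protein-coding genes), 12 a Spt16 region (66.7%, against 7.15%) and 1, Pou5f1, a Jmjd1c region (5.56%, against 0.132%). Within 5000 bp the Spt16 count fell to 7 (38.9%, against 1.3%). The Oct4 and Jmjd1c counts stayed the same (against 0.192% and 0.0137%). Within 1000 bp only Nanog remained, with Oct4 (5.56%, against 0.0639%) and Spt16 (5.56%, against 0.466%). Dppa3, a maternal factor and marker of naive cells, held 29 Oct4 and 110 Spt16 reads, against 2 and 3 input reads. Of 5 genes for FACT and the JMJD1 family, 0 had an Oct4 or Jmjd1c region, as shares of 1.42% and 0.132% of all genes would leave most sets of 5, and 2 had a Spt16 region (40.0%, against 7.15%). These lay near Jmjd1c (4355 bp, 56 reads against 3 input reads, 7.43-fold, 2.41 to 37.1) and inside Kdm3b (1806 bp, 75 against 4, 7.46-fold, 2.8 to 28.1).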
